A study of Mus musculus with 2 samples.

Results

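The Rtl1-antisense microRNA (miRNA) genes are 5 genes, Mir431, Mir433, Mir127, Mir434 and Mir136, that lie inside the gene Rtl1 on mouse chromosome 12 and are read from the strand opposite to it. They were taken by gene name from the 2202 miRNA genes counted in each library, and all 5 were found. Their levels were measured in the hippocampus of male B6CASTF1/J mice, first-generation hybrids of the inbred strains C57BL/6J and CAST/EiJ, aged 25 days; the submitters label the tissue as a layer of hippocampus. There were 2 microRNA sequencing libraries of 1 group, replicates 1 and 2, with separate biosamples but a single shared donor entry, so their spread may be partly technical. No treatment, mutation or other tissue was included. Counts do not separate the alleles of the hybrid, so which parental chromosome the reads came from was not measured.

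A miRNA is cut from a folded precursor, the hairpin, into a short mature strand from its 5′ arm (5p) or its 3′ arm (3p), which guides silencing proteins to messenger RNAs, mainly through the bases of its seed. Rtl1 is a protein-coding gene derived from a retrotransposon. It is imprinted: its mRNA is made from the paternal chromosome, while the antisense transcript that carries these miRNAs is made from the maternal one, within the Dlk1-Dio3 domain with its noncoding genes Meg3 and Rian. Because the miRNAs are transcribed across the Rtl1 coding sequence, they can pair with the Rtl1 mRNA along their whole length, and in mouse they are known to direct its cleavage. In mouse, loss of Mir127 is known to alter the placenta, and Mir431 is known for promoting axon outgrowth of sensory neurons and muscle regeneration.

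The sequences of both mature arms of each gene are given first, because they show how these genes face Rtl1. They are from RefSeq (GRCm38.p6), read 5′ to 3′, in genome order, with the seed (bases 2 to 8) in capitals.
miR-431-5p: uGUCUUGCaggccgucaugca
miR-431-3p: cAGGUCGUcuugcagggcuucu
miR-433-5p: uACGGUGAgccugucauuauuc
miR-433-3p: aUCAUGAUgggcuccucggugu
miR-127-5p: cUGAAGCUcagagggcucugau
miR-127-3p: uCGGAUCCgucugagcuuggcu
miR-434-5p: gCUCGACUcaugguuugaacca
miR-434-3p: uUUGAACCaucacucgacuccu
miR-136-5p: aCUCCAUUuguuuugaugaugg
miR-136-3p: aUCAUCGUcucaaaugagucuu

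All 5 genes had an entry in RefSeq, with 10 mature sequences of 21 or 22 bases. The 10 seeds all differed, and none was shared with any other of the 1738 mature entries, so these genes form a cluster by place and not a family by sequence. An unshared seed is not particular to them, as Mir432 and Mir3071, also within Rtl1, had unshared seeds too. How many of all mature entries have an unshared seed was not counted. The longest stretch that any of the 5 precursors shared with a miRNA gene elsewhere, on either strand, was 12 bases, and each mature sequence occurred in the annotated transcripts of its own gene alone. The gene counts hold no reads with several alignments, and no annotated transcript other than its own gene's gives a whole mature read of these genes a further perfect alignment in the same orientation. The genome outside annotated transcripts was not searched.

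Each precursor lies wholly inside the coding sequence of Rtl1, in the second of its 2 exons. Rtl1 spans 109589193 to 109600330 on the minus strand of chromosome 12 (GRCm38, mm10), with a coding sequence from 109590172 to 109595403 that holds 1744 codons. On the plus strand, Mir431 (ENSMUSG00000070080.1) lies at 109590447 to 109590537, Mir433 (ENSMUSG00000070072.1) at 109591715 to 109591838 and Mir127 (ENSMUSG00000070076.2) at 109592846 to 109592915. Mir434 (ENSMUSG00000070133.1) lies at 109594506 to 109594599 and Mir136 (ENSMUSG00000104858.1) at 109595327 to 109595388. The cluster covers 4942 bases, and the order runs against the mRNA: Mir136 faces its beginning, 15 bases from the first base of the start codon, and Mir431 its end. The precursors are shown with the mature arms in capitals, since both arms and the loop between them face codons of Rtl1.
Mir431: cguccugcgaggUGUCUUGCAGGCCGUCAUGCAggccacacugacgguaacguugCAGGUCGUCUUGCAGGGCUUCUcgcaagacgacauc
Mir433: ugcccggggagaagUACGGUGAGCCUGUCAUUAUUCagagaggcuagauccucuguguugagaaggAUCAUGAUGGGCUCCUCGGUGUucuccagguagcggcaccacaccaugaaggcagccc
Mir127: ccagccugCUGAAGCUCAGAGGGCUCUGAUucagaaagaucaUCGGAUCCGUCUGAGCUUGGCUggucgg
Mir434: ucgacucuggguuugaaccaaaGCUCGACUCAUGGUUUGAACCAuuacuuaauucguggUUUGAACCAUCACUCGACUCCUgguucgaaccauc
Mir136: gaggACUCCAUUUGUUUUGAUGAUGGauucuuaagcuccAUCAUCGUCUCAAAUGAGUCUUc

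The reverse complement of each precursor was found once in the Rtl1 transcript, base for base, which its place requires. For 8 of the 10 mature sequences Rtl1 was the only annotated gene with a perfect complement. The exceptions were both arms of Mir136, whose complement is also in Mir3071, a miRNA gene on the strand of Rtl1. The sites of the 3p arms of the leading pair of genes are given as read in the Rtl1 mRNA, with the bases opposite the seed in capitals.
Rtl1 site of miR-127-3p: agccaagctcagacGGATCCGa
Rtl1 site of miR-433-3p: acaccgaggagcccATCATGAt
The first covers codons 832 to 839 of Rtl1 and the second codons 1201 to 1208. A perfect match is a feature of the sequence. Cleavage of Rtl1 and the level of its mRNA were not measured here. Reads were counted per gene, so how they divide between the 5p and 3p arms was not measured either. The precursors ranged in GC content from 40.3% for Mir136 to 60.4% for Mir431. Mir434 holds a stretch of 13 bases, ugguuugaaccau, in 2 copies, the first ending with the 5p arm and its next base, the second beginning at the loop and running into the 3p arm. Of the 2202 miRNA genes, 10.1% hold a repeat at least that long.

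How strongly were the 5 genes expressed? By mean level of reads assigned to 1 gene, Mir127 and Mir433 stood at ranks 3 and 12 of the 2202 miRNA genes of the hippocampus, Mir434 and Mir431 at ranks 80 and 86, and Mir136 at rank 217. All 5 lay above the median of 41.3 CPM (counts per 1000000 gene-assigned counts) over the 472 genes that averaged 10 or more counts. The 43.2% and 43.6% of reads in replicates 2 and 1 that had several alignments are missing from these ranks, so miRNAs with several gene copies may rank too low and the ranks hold for singly assigned reads alone. Together the 5 genes took 7.28% of all gene-assigned counts in replicate 2 and 10.3% in replicate 1, with exact 95% intervals of 7.25 to 7.30 and of 10.297 to 10.35, and a mean of 8.80% ± 2.16 (SD, n = 2). The mean share was 4.05% with the multiply aligned reads in the total, and 2.22% for the 4 genes other than Mir127. In bulk tissue such a level cannot tell fewer cells of a type from less RNA per cell. Levels in CPM are not divided by gene length, since a read covers a mature strand whole, and dividing by the length of the gene left the order unchanged. Intervals cover the counting error of reads only. No molecular identifiers are mentioned, so copies of the same molecule may be counted as separate reads, and the intervals do not cover this.

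Mir127 had 288007 counts in replicate 2 and 427796 in replicate 1, or 49054 CPM (exact 95% interval 48879 to 49229) and 82528 CPM (82291 to 82765). It was the fifth most abundant gene in replicate 2 and the third in replicate 1, with a mean of 65791 ± 23670 CPM (SD, n = 2). In the order of mean levels it stood between Mirlet7b and Mirlet7g, both of the let-7 family that restrains growth in differentiated cells. Mirlet7b had 110204 and 115138 CPM in replicates 2 and 1, above Mir127 in both libraries. Mirlet7g had 63545 CPM in replicate 2 and 57434 CPM in replicate 1, so it was above Mir127 in replicate 2 and below it in replicate 1. The place of Mir127 against Mirlet7g was therefore not separated from the spread between libraries.

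Mir433, known in human cells for repressing the growth factor FGF20, had 118158 counts in replicate 2 and 93488 in replicate 1, or 20125 CPM (20012 to 20239) and 18035 CPM (17921 to 18150). Its mean was 19080 ± 1478 CPM (SD, n = 2), at rank 12. Its neighbours in mean level were Mir23b above it, at 16032 and 22183 CPM in replicates 2 and 1, and Mir487b of the same imprinted domain below it, at 17603 and 19201 CPM. Both neighbours changed places with Mir433 between the libraries. Mir433 was below Mir127 in both.

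Mir434, a miRNA described in mouse and rat, had 12248 counts in replicate 2 and 6203 in replicate 1, or 2086 CPM (2049 to 2123) and 1197 CPM (1167 to 1227), with a mean of 1641 ± 629 CPM (SD, n = 2). Mir431 had 8323 counts in replicate 2 and 7420 in replicate 1, or 1418 CPM (1387 to 1448) and 1431 CPM (1399 to 1464), with a mean of 1425 ± 9.78 CPM. Mir434 was above Mir431 in replicate 2 and below it in replicate 1, so these neighbours in the order did not differ beyond their spread. By mean level Mir434 and Mir431 ranked 80 and 86 among all miRNA genes. Next to Mir434 stood Mir667 (1325 and 1991 CPM in replicates 2 and 1) and Mir181c (1886 and 1258 CPM), and next to Mir431 stood Mir1983 (1772 and 1087 CPM) and Mir543 (783 and 1907 CPM). Each of these neighbours lay above its member in 1 library and below it in the other.

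Mir136 had 429 counts in replicate 2 and 226 in replicate 1, or 73.1 CPM (66.3 to 80.3) and 43.6 CPM (38.1 to 49.7). Its mean was 58.3 ± 20.8 CPM (SD, n = 2), at rank 217, beside Mir18 (67.4 and 50.2 CPM in replicates 2 and 1) and Mir16-2 (42.1 and 71.4 CPM). It was the lowest of the 5 genes in both libraries. The fewer counts of Mir136 also make the interval of its level the widest of the 5 relative to its size.

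**Figure D1:**
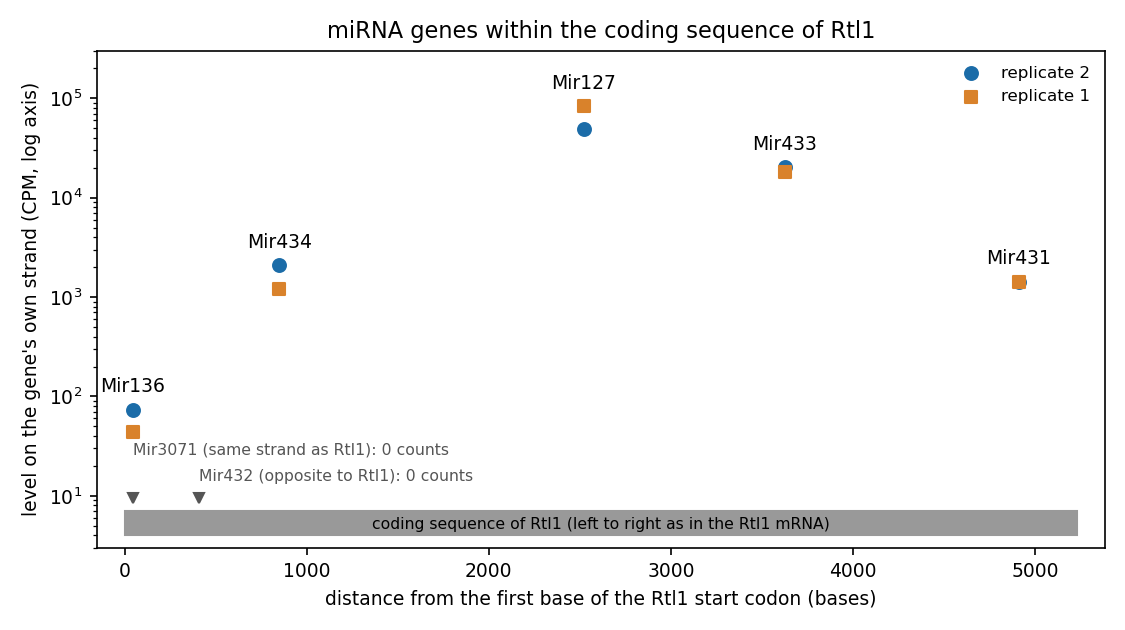
Level of each miRNA gene within the coding sequence of Rtl1 (CPM on its own strand, log axis) against its distance in bases from the first base of the Rtl1 start codon, with blue circles for replicate 2 and orange squares for replicate 1. Mir127 lies near the middle of the coding sequence and Mir433 nearer its end, both at 18035 CPM or more. Mir136 near the start codon is at 73.1 and 43.6 CPM in replicates 2 and 1. Grey triangles mark the place of Mir3071 and Mir432, which had 0 counts.

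Were other miRNA genes within Rtl1 expressed? The annotation places 7 miRNA genes within its bounds, and the other 2 had 0 counts on their own strand in both libraries. Mir432 lies on the strand of the members between Mir434 and Mir136, at 109594956 to 109595030, with 356 bases to the first and 296 to the second. Mir3071 lies on the strand of Rtl1 at 109595318 to 109595397 and covers all 62 bases of Mir136. With 0 counts, the level could be as high as 0.511 CPM in replicate 2 and 0.579 CPM in replicate 1. The mature sequence of Mir432 is shown because it too has a perfect complement in Rtl1, with its seed in capitals.
miR-432: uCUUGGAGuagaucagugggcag
Mir432 thus has the same arrangement against Rtl1 as the 5 members but no count.

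The count of reads on the other strand of each gene was not used to choose the members. On that strand, which is the strand of the Rtl1 mRNA, each of the 5 genes had 0 counts in both libraries, against 427165 counts on their own strand in replicate 2 and 535133 in replicate 1. A 0 in this column was usual: the Dlk1-Dio3 miRNA genes compared below had 0 there unless they overlapped a counted gene on the other strand. Nothing about the Rtl1 mRNA is read from it. A count of 0 allows at most 0.000702% of both strands together in replicate 2 and 0.000561% in replicate 1. For Mir136 alone, with its few counts, it allows 0.699% and 1.33% in replicates 2 and 1. Reads of Mir136 stood a second time in the table as the other-strand counts of Mir3071, with the same 429 and 226 counts. In the deposited column that ignores strand both genes are at 0, so Mir136 can be read only with strand.

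How usual is it for a miRNA gene to lie against coding sequence? Of the 2202 miRNA genes, 54 lie wholly inside an annotated coding exon of a gene on the other strand, in 49 coding genes. A minimum of 10 counts in each library was reached by 5 of the 54, and these were the 5 members. The others were Mir432 and 48 genes in other coding genes, of which none passed the minimum in either library; the highest was Gm28033, opposite Ppp1r18, with 2 counts in each. Over all 2202 miRNA genes only 472 averaged 10 or more counts, so most were low or undetected wherever they lay. That filter on the mean is looser than the minimum in each library, for which the share over all genes was not counted. Most of the 48 genes carry Gm names rather than Mir names, and many lie opposite histone or keratin genes. Whether their reads can be uniquely assigned, and whether lying against coding sequence bears on detection, was not tested. In these libraries the detected miRNA genes antisense to coding sequence were thus those of Rtl1, a statement that covers only annotated genes and uniquely assigned reads.

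Did the 5 genes move together between the libraries? They did not: Mir127 was lower in replicate 2, Mir434 and Mir136 were higher in it, and Mir431 was nearly level. Each gene's pair of counts was compared with the pair of library totals in a 2-sided exact binomial test, with Benjamini-Hochberg adjustment over the 472 genes that averaged 10 or more counts. All 5 members passed this filter. The test compares 2 libraries with read sampling as its only noise and leaves out the spread between samples, so a call is no evidence of a difference between mice beyond that spread. Of all genes tested 59.7% were called, 39.4% as higher in replicate 2 and 20.3% as higher in replicate 1. Among the members 4 of 5 were called, 3 higher in replicate 2 and 1 in replicate 1. Under TMM scaling 2 were called higher in each replicate, and with DESeq2 size factors 2 higher in replicate 2 and 3 in replicate 1. Against that background nothing is read from a count over 5 genes.

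Mir127 was at 0.594 of its replicate 1 level in replicate 2 (exact 95% interval 0.592 to 0.597), giving -0.75 as log2 ratio (replicate 2 over replicate 1), with an adjusted p below 1e-300 in the exact binomial test. Mir434 was 1.74-fold higher in replicate 2 (1.69 to 1.80), with an adjusted p of 3.39e-291, and Mir136 was 1.68-fold higher (1.42 to 1.98), with an adjusted p of 4.43e-10 in the same exact test. These 3 lay well away from the median log2 ratio of 0.16 over all genes tested. Yet of the 291 genes that averaged 100 or more counts, 51, 47 and 55 had a larger absolute log2 ratio than Mir127, Mir434 and Mir136. Differences of this size were thus not rare between these libraries. The spread beyond read sampling over the 472 genes, which edgeR names the biological coefficient of variation, was 0.320. With a single shared donor entry it may be partly technical.

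Mir433 was 1.12-fold higher in replicate 2 (1.11 to 1.13, adjusted p 5.44e-138, exact binomial test) under scaling to the gene-assigned total, but its log2 ratio of 0.16 was that of the median gene, and it turned to -0.013 under trimmed mean of M-values (TMM) scaling and to -0.017 with DESeq2 size factors. Mir431 was at 0.990 of its replicate 1 level in replicate 2 (0.960 to 1.02) and did not pass the exact test (adjusted p 0.648). Of the 291 genes, 283 had a larger absolute log2 ratio than Mir431. TMM scaling moves every log2 ratio by -0.17, so the closeness of the levels of Mir431 holds only for scaling to the gene-assigned total.

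**Figure D2:**
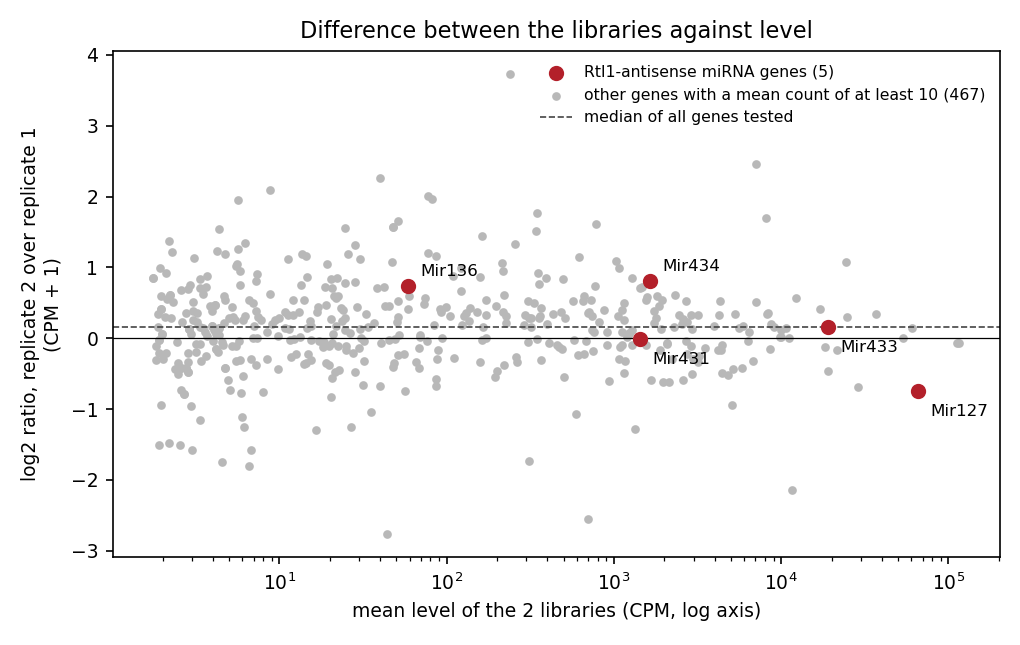
Log2 ratio of replicate 2 over replicate 1 (CPM + 1) against the mean level (CPM, log axis) for the 5 Rtl1-antisense genes (red) and the other 467 genes that averaged 10 or more counts (grey), with the median of all genes tested as a dashed line. Mir434 and Mir136 lie above the median, Mir127 below it, Mir433 on it (a log2 ratio that turns negative under TMM and DESeq2 scaling) and Mir431 close to 0.

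Ratios between the 5 genes within a library do not depend on the scaling, and they differed as well. The 4 genes other than Mir127 summed to 23702 CPM in replicate 2 and 20707 CPM in replicate 1. Of the counts of the 5 genes, Mir127 made up 67.4% in replicate 2, with an exact 95% interval of 67.3 to 67.6, against 79.9% in replicate 1, with an interval of 79.8 to 80.0. Mir433 made up 27.7% (27.5 to 27.8) and 17.5% (17.4 to 17.6) in replicates 2 and 1. The other 3 genes took 4.92% and 2.59% together. The makeup of the cluster thus varied between the libraries beyond the counting error of reads. With 1 library of each, no test against the spread between samples is possible.

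Mir127 was counted 2.44 times as often as Mir433 in replicate 2 (95% interval 2.42 to 2.45) and 4.58 times as often in replicate 1 (4.54 to 4.61). Its ratio to Mir434 was 23.5 (23.1 to 23.9) in replicate 2 and 69.0 (67.3 to 70.7) in replicate 1, the widest change of the 10 pairs. The narrowest was that of Mir434 to Mir136, the pair that faces the beginning of Rtl1, at 28.6 (25.9 to 31.5) in replicate 2 and 27.4 (24.0 to 31.5) in replicate 1. These intervals overlap, so for this pair no change was detectable at this depth. Mir433 to Mir431 came next, at 14.2 (13.9 to 14.5) and 12.6 (12.3 to 12.9) in replicates 2 and 1, with intervals that do not overlap.

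**Figure D3:**
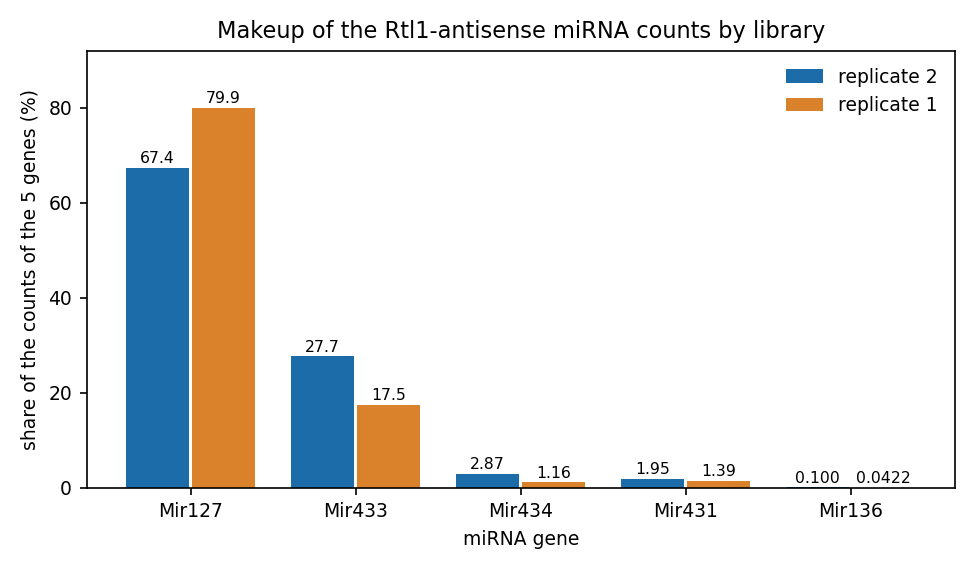
Share of the counts of the 5 Rtl1-antisense genes taken by each gene (%), in replicate 2 (blue, left bar) and replicate 1 (orange, right bar); each bar is 1 library. Mir127 took 67.4% in replicate 2 and 79.9% in replicate 1, and Mir433 27.7% and 17.5%.

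The genes with a pattern most like that of Mir127 were sought among genes with a mean of at least 1000 CPM, by the nearest log2 ratio, a single value from 2 libraries. They were Mir99a (log2 ratio -0.69, with 21930 CPM in replicate 2 and 35376 CPM in replicate 1), Mir370 (-0.62, with 1554 and 2391 CPM) and Mir30e (-0.62, with 1696 and 2599 CPM). Mir370 lies in the same imprinted domain, on the plus strand at 109618258 to 109618336. The other two lie on chromosomes 16 and 4.

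How do the 5 genes stand within the imprinted domain? Of the counts of the 58 Dlk1-Dio3 miRNA genes compared, the 5 took 40.7% in replicate 2 and 50.2% in replicate 1, against 16.4% and 15.1% for the 14 genes near Meg3 and Rian and 43.0% and 34.7% for the 39 genes of the Mir379 to Mir410 cluster. The cluster antisense to Rtl1 thus took the largest share of the 3 lists in replicate 1 and the Mir379 to Mir410 cluster in replicate 2. The list named Mir379 to Mir410 also holds a gene that lies beyond Mir410. Each list was also taken without its own highest gene, a comparison added after seeing the data. Without Mir127 the 4 other genes took 2.22% ± 0.212 of all gene-assigned counts (SD, n = 2), the genes near Meg3 and Rian without Mir770 took 0.847% ± 0.0558, and the Mir379 to Mir410 genes without Mir487b took 5.58% ± 0.493.

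Levels within the cluster were widely spread, as they were in the neighbouring clusters. The 5 genes had a median mean level of 1641 CPM and a range of 58.3 to 65791 CPM. The 11 of 14 genes near Meg3 and Rian that passed the count filter had a median of 736 CPM and ranged from 19.2 to 21690 CPM, and the 35 of 39 Mir379 to Mir410 genes that passed had a median of 580 CPM and ranged from 3.64 to 18402 CPM. Over all 472 genes tested the median was 41.3 CPM. The leading neighbours were Mir770, in Meg3, at 20419 and 22960 CPM in replicates 2 and 1, Mir337 at 2406 and 2153 CPM and Mir370, and from the Mir379 to Mir410 cluster Mir487b, Mir382 at 14580 and 9840 CPM and Mir541 at 9359 and 8135 CPM. No neighbour in these lists reached Mir127 in either library.

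In the comparison of the libraries, the Rtl1-antisense genes had a median log2 ratio of 0.16, with 3 of 5 called higher in replicate 2 and 1 higher in replicate 1. The genes near Meg3 and Rian had a median of 0.32, with 8 of 11 higher in replicate 2 and 2 in replicate 1, and the Mir379 to Mir410 genes a median of 0.23, with 21 of 35 and 8 of 35. Over all genes tested the median was 0.16, with 39.4% called higher in replicate 2 and 20.3% in replicate 1, and nothing particular to a list is read from these counts. All of these log2 ratios fall by 0.17 under TMM scaling, with the direction of the Rtl1-antisense median, set by Mir433, turned to -0.013.

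**Figure D4:**
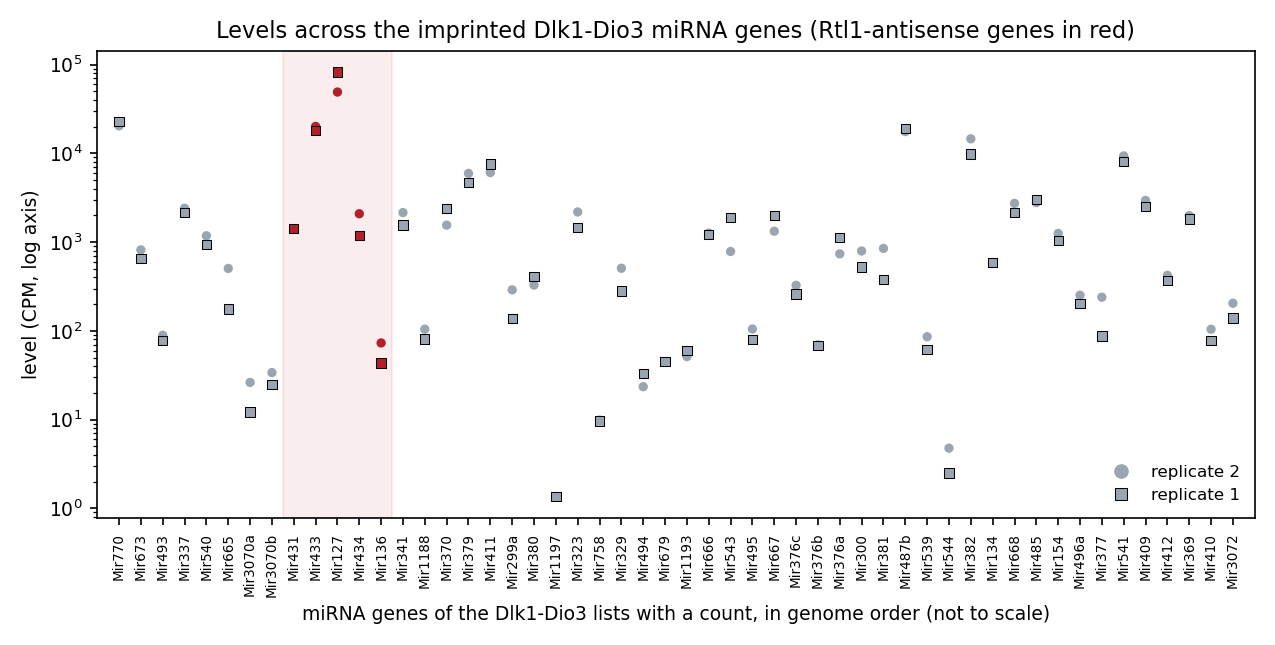
Level (CPM, log axis) of the 52 Dlk1-Dio3 miRNA genes with a count, in genome order and not to scale, with circles for replicate 2 and outlined squares for replicate 1; the 5 Rtl1-antisense genes are red on a shaded ground. Mir127 is the highest gene of the domain in both libraries, and Mir136 lies at 73.1 and 43.6 CPM.

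Depth and tissue were checked once for both libraries. They held 5871233 gene-assigned counts in replicate 2 and 5183641 in replicate 1, while multiply aligned reads made up 43.2% and 43.6% of all reads. Of 12 neuron-enriched marker genes, 9 reached 10 counts in each library, and the 12 summed to 3.95% and 3.61% of counts in replicates 2 and 1. The exceptions included the copies Mir124a-2 and Mir124a-3, with 1 and 9 counts in replicate 2 and 0 and 2 in replicate 1. Oligodendrocyte markers summed to 0.668% and 0.525%, vessel markers to 0.879% and 0.931%, microglia and leukocyte markers to 0.167% and 0.171%, and choroid plexus and ciliated cell markers to 0.110% and 0.135%. Red blood cell markers took 0.00569% and 0.00419%, the liver marker Mir122 0.00361% and 0.00204%, pituitary and islet markers 0.0363% and 0.0380%, and muscle markers 0.0142% and 0.00768%, with Mir133a-1, Mir133a-2 and Mir1a-1 at 0. Of the 5 muscle markers, 1 reached 10 counts in each library. Reads with several alignments are left out, so markers with several gene copies may be too low here. A 0 among them is thus no evidence of absence. The part of the marker genes in the differences of Mir127, Mir434 and Mir136 was not tested.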

How the data were processed

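The authors deposited a table of unnormalized read counts per miRNA gene for either library, on mm10 with GENCODE M21 per the text file deposited beside it. The aligner and the counter are not stated in the sources used here. Each table has 3 count columns (ignoring strand, the gene's strand, the other strand) and 4 rows without a gene, which were left out of totals. Of all reads in replicates 2 and 1, 15.5% and 14.1% were unmapped, 43.2% and 43.6% had several alignments and 4.59% and 5.04% lay outside any feature. Counts on the gene's strand were scaled to CPM, with a pseudocount of 1 in log2 ratios.

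A single group leaves edgeR's quasi-likelihood test nothing to compare. The libraries were compared gene by gene with a 2-sided exact binomial test (scipy 1.17.1) and a threshold of 0.05. Benjamini-Hochberg adjustment ran over the genes that averaged 10 or more counts. The test was checked on simulated counts with read sampling as their only noise, so the check does not cover further spread between libraries. edgeR 4.0.16 gave TMM factors and the common dispersion, and DESeq2 1.42.0 gave size factors. Intervals are Clopper-Pearson at 95%, and a count of 0 allows up to 3 counts. Coordinates, exons and transcripts come from GENCODE M21 and miRNA sequences from RefSeq.

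The text names the members, the other miRNA genes within Rtl1, the genes next to each member in mean level, the 3 genes nearest to Mir127 in log2 ratio and the 3 highest genes of each neighbouring list. Gm28033 and the Mir124a copies were picked with their values in view, as were the counts of miRNA genes in coding sequence and the ratios between members. The members and lists were chosen with earlier results of these data known. Alternatives covered the count column, the total, the scaling, the filter, the pseudocount, gene length and each library alone.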

Additional observations from a re-analysis of the deposited data

How the results depend on the processing

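The share of counts taken by the 5 genes was 4.05% with reads aligned to several places added to the total and 2.22% without Mir127, against 8.80%; with 1 library left out it ran from 7.28% to 10.3%. Without regard to strand it was 9.37%, with Mir136 at 0. The number of members called was between 3 and 5 in the 8 alternatives, against 4: Mir431 was also called under TMM scaling, with DESeq2 size factors and with a total that leaves out Mir127, an alternative chosen after seeing the data, and Mir136 had no value without regard to strand. The log2 ratio of Mir433 reversed to -0.013 (adjusted p 0.0623, exact binomial test) under TMM scaling and to -0.017 (adjusted p 0.0134, exact binomial test) with DESeq2 size factors, since these move every log2 ratio by -0.17 and -0.18. Those of Mir127 (-0.93 to -0.74), Mir434 (0.63 to 0.81) and Mir136 (0.56 to 0.74) kept their direction and stayed called wherever they had a value. No paired analysis was possible because there is 1 group. Depth limits Mir136 most, at 429 and 226 counts in replicates 2 and 1.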

Other observations

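The arrangement of Mir136 and Mir3071 had counterparts nearby. Mir337 had 14127 counts on its own strand in replicate 2 and 11159 in replicate 1, and Mir3544, which overlaps it on the other strand, had 0 counts of its own in both and the same 14127 and 11159 counts in its other-strand column. In the column that ignores strand, Mir337 and Mir3544 were at 0 in both libraries. Mir299a had 1701 counts on its own strand in replicate 2 and 718 in replicate 1. Mir299b, on the other strand, had 0 of its own and 1700 and 718 in its other-strand column. Without regard to strand Mir299a had 1 count in replicate 2 and 0 in replicate 1. Mir380, Mir376a, Mir539 and Mir409 were also at 0 in both libraries in that column. These genes were chosen after their values were seen.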
